A study of Mus musculus with 30 samples.

Results

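The 8 genes described here handle iron and heme: *Hmox1*, *Slc40a1*, *Fth1*, *Ftl1*, *Tfrc*, *Slc11a1*, *Slc11a2* and *Cp*. They were chosen by name, with earlier results of these data known, and each is 1 of the 45317 gene symbols counted in every library. RNA was sequenced from 8 cell populations sorted from the blood and brain of 4 tumor-bearing mice, numbered 22, 23, 24 and 26. The mice were C57BL6.CCR2RFP/WT, which carry RFP in place of 1 *Ccr2* allele, were 12 to 18 weeks old, and all received the glioma line GL261.BpalmGFP in the striatum. No tumor-free mouse was among the libraries. The palmitoylated GFP of the glioma sits in membranes, and the study took GFP in a sorted cell as a marker of uptake of tumor-derived membrane. Blood gave Ly6CHigh Blood Monocytes and Ly6CLow Blood Monocytes from mice 22, 23 and 24. Brain gave Ly6CHigh Brain Monocytes (mice 22, 24 and 26), CCR2High Brain Macrophages and CCR2Low Brain Macrophages (4 mice each), and each of these was sorted as GFPneg and GFPpos. The sort took CD45-high cells in order to leave microglia out, and only brain tissue went through enzymatic dissociation.

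Macrophages take up iron and heme, store the iron or hand it on. TFRC, the transferrin receptor, brings in iron-loaded transferrin, and SLC11A2 (DMT1) and SLC11A1 (NRAMP1) carry divalent metal out of endosomes and phagosomes into the cytosol. HMOX1, heme oxygenase 1, splits heme and frees its iron. FTH1 and FTL1, the heavy and light chains, form the ferritin shell that stores it. SLC40A1, ferroportin, is the exporter of iron, and CP, ceruloplasmin, is a copper oxidase that helps to load exported iron onto transferrin.

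The tests used 28 replicates, 6 of blood and 22 of brain, with 1553616 to 5689644 counts on genes (median 2140229.5). Normalized read counts are given as CPM, the usual scaling of counts to a common library total, after TMM, a correction for composition that takes most genes to be unchanged. A total of 11566 genes passed the filter on low counts, and all 8 iron and heme genes were among them. *Tfrc* and *Cp* had too few counts in blood to pass there, and they passed through their brain replicates. A gene was called at an adjusted p under 0.05 in edgeR's quasi-likelihood test. That test took the replicates as independent, although several came from the same mouse. Each value covers all cells of a sort, so fewer expressing cells and less RNA per cell cannot be told apart. Of the 10 monocyte and macrophage markers, all were detected, with a summed level of 7113 to 12131 CPM in brain and 3264 to 9979 CPM in blood. *Mertk* and *C1qa*, markers of macrophages, were low in blood, with medians of 0.0 and 21 CPM. The list was mixed. Medians in blood and brain were 1368 and 148 CPM for *Ccr2*, 610 and 199 for *Ly6c2*, 3502 and 3060 for *Csf1r*, and 553 and 508 for *Itgam*. *Cx3cr1*, *Adgre1*, *Fcgr1*, *Mrc1*, *Mertk* and *C1qa* had the higher median in brain. The 6 microglial markers summed to 1068 to 6725 CPM in brain and to 0.910 to 57.0 CPM in blood, so transcripts of microglial markers were present behind a gate meant to leave microglia out.

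For 2 samples a second library was deposited apart from the rest, called the second run here. The labels do not say whether RNA was prepared anew or a library was sequenced again. These second libraries stood apart in the ferritin genes. In GFPpos brain monocytes of mouse 22 *Fth1* had 25857 counts in the first run and 4216 in the second, while *Ftl1* had 12034 and 19695. In Ly6CLow blood monocytes of mouse 23 *Fth1* had 5158 and 763 counts, and *Ftl1* had 7608 and 12477. Both samples thus had less *Fth1* and more *Ftl1* in the second run. For mouse 22 both libraries were summed. For mouse 23 the first library had too few detected genes and the second stands alone, with 73 counts of *Hmox1* and 0 of *Slc40a1*, *Tfrc*, *Slc11a2* and *Cp*. The calls and values that these libraries moved most are given with and without them.

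**Figure D1:**
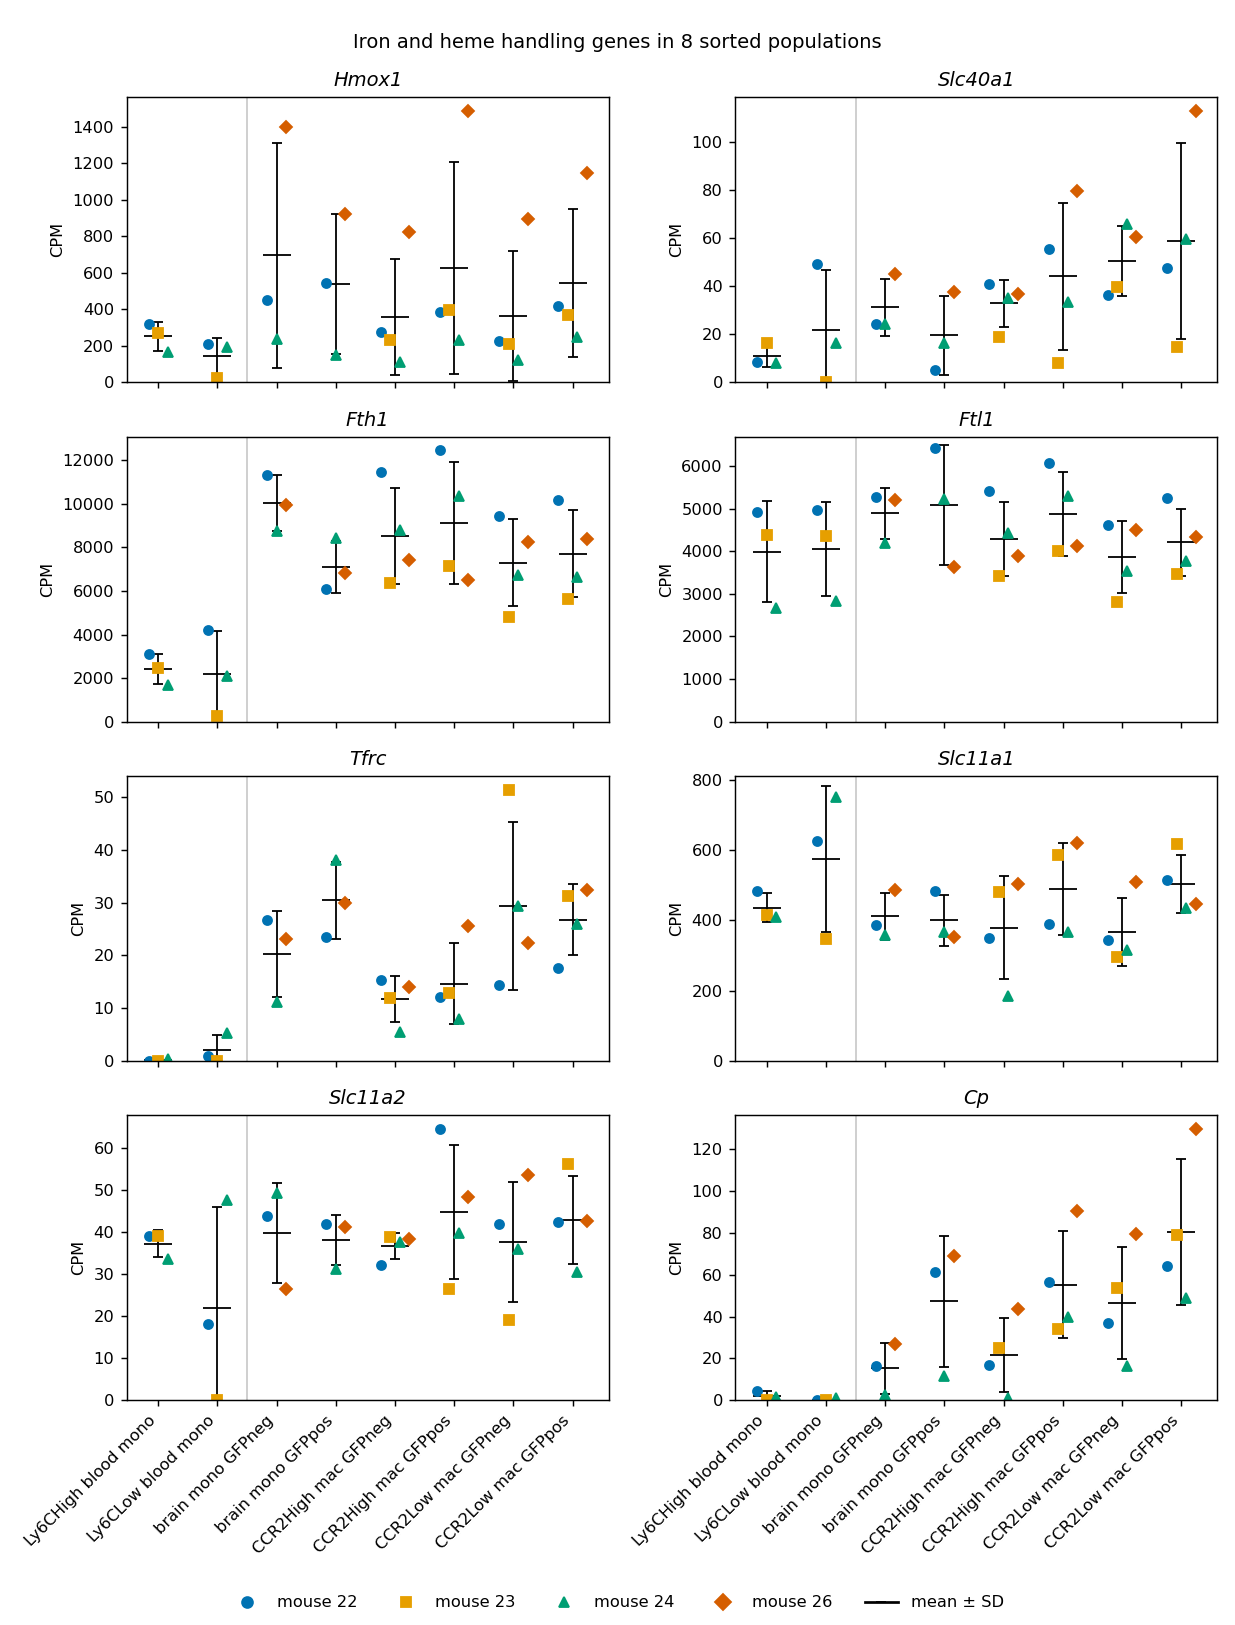
Normalized read counts (CPM, linear axes from 0) of the 8 genes in each replicate of the 8 populations, with mean ± SD; colors and symbols mark the mouse, and the grey line parts blood from brain. *Fth1* and *Tfrc* are above every blood replicate in all 22 brain replicates, and *Hmox1* and *Cp* are highest in mouse 26 in all 6 brain populations.

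Levels between genes were compared per kilobase of the longest principal transcript. On that scale the ferritin chains were by far the most abundant of the 8, with brain means of 5539 CPM per kb for *Fth1* and 4646 CPM per kb for *Ftl1*. *Hmox1* followed at 327 CPM per kb and *Slc11a1* at 185 CPM per kb. The remaining 4 lay between 4.49 CPM per kb for *Tfrc* and 13.2 CPM per kb for *Slc11a2*, with *Cp* at 11.3 and *Slc40a1* at 12.1. In blood the light chain came first, with 4157 CPM per kb against 1544 CPM per kb for *Fth1*. *Fth1* and *Ftl1* together made up 0.878% to 1.70% of all counts on genes in brain replicates (median 1.21%) and 0.453% to 1.04% in blood replicates (median 0.609%).

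Brain versus blood was the comparison in which most of the 8 were called. *Fth1*, *Tfrc*, *Cp* and *Hmox1* were called higher in brain, and none of the 8 was called lower. That is 4 of 8, beside 39.3% of all tested genes called in either direction and 26.4% called higher. *Tfrc* and *Cp* passed the filter only through brain replicates, so a higher level in brain was close to set beforehand for them. Their calls and p-values are thus no independent support. The same limit holds for their share in the median and in the count without overlap below. The median log2 fold change of the 8 was 1.35, against 0.21 over all tested genes. Scaling by spike-in RNAs moved that median of all genes to 0.68 and the split of called genes from 3048 higher and 1496 lower to 2171 higher and 277 lower. *Fth1*, *Tfrc* and *Cp* were called higher under that scaling too. Ranges of brain and blood replicates did not overlap for 2 of 8, *Fth1* and *Tfrc*, beside 6.38% of all tested genes. Markers of tissue dissociation (11 genes such as *Fos* and *Dusp1*) summed to 5175 to 21838 CPM in brain and to 1215 to 2454 CPM in blood. Only brain tissue was dissociated with enzymes, so handling and compartment cannot be told apart here. The part of dissociation, of microglial transcripts and of astrocyte transcripts (76.6 to 298 CPM for 7 markers in brain, 3.40 to 75.3 CPM in blood) in these differences was not tested.

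The storage genes came first in level. *Fth1* had 3102, 2466 and 1701 CPM in Ly6CHigh blood monocytes of mice 22, 23 and 24. Ly6CLow blood monocytes of the same mice had 4225, 266 and 2077 CPM, where the 266 is the replicate from the second run. GFPneg brain monocytes of mice 22, 24 and 26 reached 11342, 8778 and 9959 CPM, and the GFPpos ones had 6099, 8426 and 6826 CPM. No brain monocyte replicate fell into the range of the blood. In CCR2High macrophages of mice 22, 23, 24 and 26, *Fth1* had 11455, 6371, 8802 and 7427 CPM without GFP and 12481, 7158, 10360.0 and 6527 CPM with GFP. In CCR2Low macrophages the values were 9427, 4798, 6752 and 8230.3 CPM without GFP and 10173, 5633, 6627 and 8412 CPM with GFP. The lowest brain replicate, at 4798 CPM, thus lay above the highest blood replicate, at 4225 CPM. The log2 fold change of *Fth1* between brain and blood was 1.84 ± 0.32 (SE), with an adjusted p of 4.2e-05 by edgeR, and 1.60 without the libraries of the second run.

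*Ftl1* was not called. Its mean was 4497 ± 930 CPM (SD, n = 22) in brain and 4024 ± 1023 CPM (SD, n = 6) in blood, with ranges of 2813 to 6434 and 2669.7 to 4982 CPM. The difference was 0.17 on the log2 scale, and its 95% confidence interval ran from -0.15 to 0.49, which leaves out a change as large as that of *Fth1* (adjusted p = 0.421, edgeR). Spike-in scaling moved it to 0.89 (adjusted p = 0.210) and *Fth1* to 2.35.

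The ratio of *Fth1* to *Ftl1* counts within a library needs no scaling between libraries. In blood it was 0.630, 0.562 and 0.637 in Ly6CHigh monocytes and 0.848, 0.0612 and 0.735 in Ly6CLow monocytes. Among the 22 brain replicates it ran from 0.948 to 2.15 with a median of 1.91, and the lowest of these was the replicate that includes a library of the second run. So light chain counts exceeded heavy chain counts in all 6 blood replicates, and heavy chain counts exceeded light chain counts in 21 of 22 brain replicates. The mean log2 ratio was 2.01 higher in brain (4.03-fold), with p = 2.7e-06 in the exact permutation test (two-sided, 6 against 22 replicates), the smallest p that these 376740 splits can give. Without the second run the brain ratio was 1.58 to 2.15 and the blood ratio 0.562 to 0.848, a difference of 1.49 (2.80-fold; exact permutation test, p = 1.2e-05). Within mice 22, 23 and 24 the log2 ratio was higher in brain by 1.31, 3.23 and 1.46, the middle value resting on the blood replicate of the second run. The permutation treats replicates as exchangeable, although up to 8 came from 1 mouse.

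**Figure D2:**
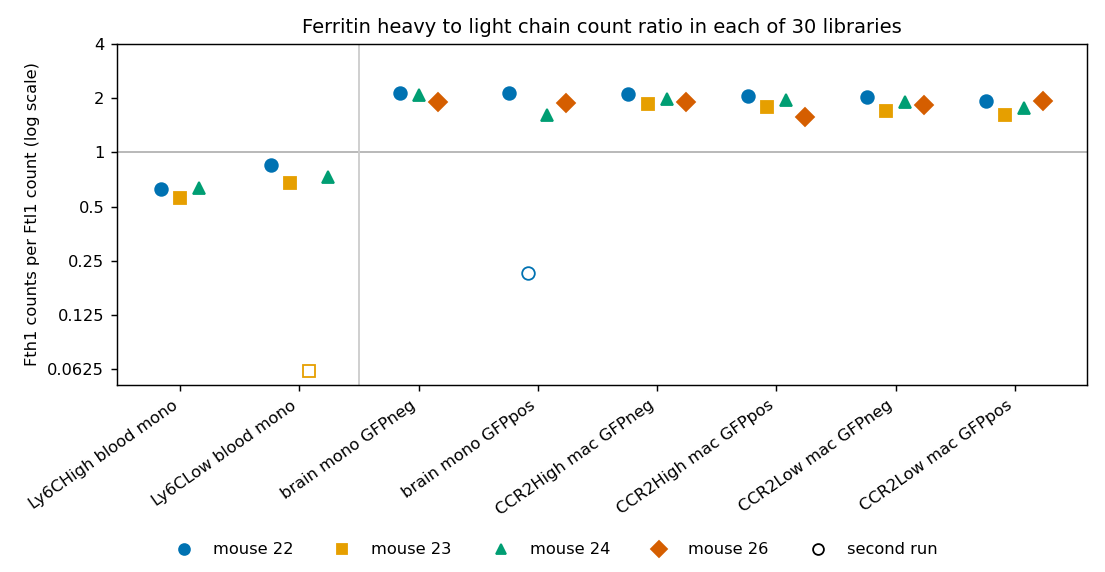
Ratio of *Fth1* to *Ftl1* counts in each of the 30 libraries (log2-spaced axis) by population; symbols mark the mouse and open symbols the 2 libraries of the second run. Brain libraries of the first run lie above 1 and blood libraries below 1, and both libraries of the second run lie lower than the first-run libraries of the same samples, at 0.214 and 0.0612.

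Ferritin counts also grew less than depth. Across first-run libraries within populations, log2 counts rose by 0.49 for *Fth1* and 0.60 for *Ftl1* per doubling of the library total. The median slope was 0.88 over the 50 genes of highest CPM and 1.10 over 8137 genes at 10 CPM or more. Duplicate reads had been removed by position before counting, without molecular identifiers, and the part of this step in the slopes was not tested. Copies of the ferritin genes drew few reads. The pseudogene *Gm6977*, which shares 21.2% of its 31-base words with *Fth1*, held 875 counts over all replicates, and *Gm10116*, the *Ftl1* pseudogene Ftl1-ps1 in RefSeq, held 1993. *Fth1* and *Ftl1* held 826175, and adding all copies left the log2 difference of the ratio at 2.01.

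Cells adjust ferritin, ferroportin and the transferrin receptor after transcription as well, through iron-responsive elements. These are RNA hairpins that bind the iron regulatory proteins ACO1 and IREB2. In a 5′ UTR they hold back translation when iron is low, and in the 3′ UTR of the transferrin receptor they then protect the RNA. Counts of RNA do not show the first of these effects. A search of GENCODE vM21 transcripts (GRCm38, RNA strand only) for an unpaired C, 5 paired bases (G with T allowed) and the loop CAGTGN found 1 element in the 5′ UTR of *Fth1*, *Ftl1* and *Slc40a1* each and 4 in the 3′ UTR of *Tfrc*. They are shown because *Fth1*, *Ftl1*, *Slc40a1* and *Tfrc* share them. *Hmox1*, *Slc11a1*, *Slc11a2* and *Cp* gave no match in this search, which does not show that they lack such an element. Capitals mark the loop, and 29 bases are given for each, 5′ to 3′.
Fth1 (chr19:9982732-9982760, + strand, 5′ UTR): ttcctgcttcaaCAGTGCttgaacggaac
Ftl1 (chr7:45459779-45459807, - strand, 5′ UTR): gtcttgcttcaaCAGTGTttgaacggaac
Slc40a1 (chr1:45925465-45925493, - strand, 5′ UTR): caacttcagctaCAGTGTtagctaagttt
Tfrc (chr16:32631219-32631247, + strand, 3′ UTR): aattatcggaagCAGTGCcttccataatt
Tfrc (chr16:32631598-32631626, + strand, 3′ UTR): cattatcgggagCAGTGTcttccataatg
Tfrc (chr16:32631663-32631691, + strand, 3′ UTR): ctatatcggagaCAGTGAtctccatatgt
Tfrc (chr16:32631710-32631738, + strand, 3′ UTR): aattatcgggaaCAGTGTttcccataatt
Of 21866 protein-coding genes, 31 (0.142%) had such a match in a 5′ UTR and 129 (0.590%) in a 3′ UTR. A match is a run of letters that can fold so, and the search does not find elements with other loops or bulges. The elements of both ferritin chains have the same upper stem, ttcaa paired with ttgaa. The part of any of these elements in the RNA levels was not tested.

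Of the uptake genes, *Tfrc* (chromosome 16) was almost absent from blood. Ly6CHigh blood monocytes of mice 22, 23 and 24 had 0, 0 and 2 counts (at most 0.439 CPM), and Ly6CLow blood monocytes had 2, 0 and 18 counts (at most 5.23 CPM). A count of 0 still allows up to 3 counts in that library. GFPneg and GFPpos brain monocytes of mice 22, 24 and 26 had 26.7, 11.1 and 23.2 CPM and 23.5, 38.1 and 29.9 CPM. CCR2High macrophages of mice 22, 23, 24 and 26 had 15.4, 11.9, 5.52 and 14 CPM without GFP and 12.1, 13, 7.93 and 25.7 CPM with GFP. CCR2Low macrophages had 14.4, 51.4, 29.3 and 22.5 CPM without GFP and 17.6, 31.2, 26 and 32.5 CPM with GFP. The lowest brain replicate (5.52 CPM) was close to the highest blood replicate (5.23 CPM), and the other blood replicates were under 1 CPM. The fitted log2 fold change between brain and blood was 4.78 ± 0.61 (SE), adjusted p = 6.6e-07 (edgeR), and it depends in part on how 0 counts are handled. Set against the 2 counts in Ly6CHigh blood monocytes, summed counts in GFPneg brain monocytes were 81.2 times as high at equal depth (exact 95% interval 22 to 679, counting error only).

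*Slc11a2*, which shares 402 exonic bases with *Gm5475* on the opposite strand, had similar means in 7 populations, 36.7 to 44.7 CPM, and 21.9 ± 24 CPM (SD, n = 3) in Ly6CLow blood monocytes. The low mean rests on values of 18.2, 0 and 47.6 CPM, the 0 being the replicate from the second run. Brain and blood differed by 0.47 on the log2 scale (95% confidence interval -0.39 to 1.34, adjusted p = 0.397, edgeR), and by 0.01 without the second run. Leaving out Ly6CLow blood monocytes of mouse 24 brought it to 1.07 and an adjusted p of 0.0490. *Slc11a1*, the phagosomal transporter, was at 184 to 620.5 CPM in brain (mean 427 ± 109, SD, n = 22) and at 346 to 751 CPM in blood (506 ± 154, n = 6). The difference of -0.25 was not called (95% confidence interval -0.61 to 0.12, adjusted p = 0.288, edgeR). It turned to 0.17 with scaling by spike-in RNAs (adjusted p = 0.869). When the Ly6CLow replicate of mouse 23 was left out it was called, at -0.44 (adjusted p = 0.0425), and without both libraries of the second run it was -0.53 (adjusted p = 0.0501).

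*Hmox1*, on chromosome 8, differed between mice as well as between compartments. Ly6CHigh blood monocytes of mice 22, 23 and 24 had 320.2, 268 and 165 CPM, and Ly6CLow blood monocytes had 211, 25.5 and 193 CPM. In GFPneg brain monocytes of mice 22, 24 and 26 the values were 452, 238 and 1399.5 CPM, and in GFPpos ones 544, 150.2 and 922 CPM. CCR2High macrophages of mice 22, 23, 24 and 26 had 274, 229, 109 and 824 CPM without GFP and 387, 394, 234 and 1489 CPM with GFP. CCR2Low macrophages had 225, 208, 124 and 893 CPM without GFP and 418, 371, 248 and 1146 CPM with GFP. Mouse 26 was highest and mouse 24 lowest in all 6 brain populations. Mouse 26 was highest in all 6 for 518 tested genes (4.48%), *Hmox1* and *Cp* among them, and its *Hmox1* level was 2.66 to 4.30 times the median of the other mice.

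Mouse 26 gave no blood, so its level of *Hmox1* enters only on the brain side. In the 16 brain replicates of the other mice *Hmox1* was at 109 to 544 CPM (median 243), overlapping the blood range of 25.5 to 320.2 CPM. The log2 fold change between brain and blood was 1.42 ± 0.54 (SE), adjusted p = 0.0383 (edgeR). With the mouse as a block, which compares cells of the same animal, it fell to 0.51 and was not called (adjusted p = 0.125). Without the second run it was 1.11 (adjusted p = 0.124), and it was also lost with spike-in scaling (2.16, adjusted p = 0.0616), with the widest filter on counts (1.42, adjusted p = 0.108) and with first libraries only (1.35, adjusted p = 0.0513). Leaving out single replicates gave 1.11 to 1.54 and ended the call in 11 of 28 cases: each of the 6 brain replicates of mouse 26, each of the 3 Ly6CHigh blood replicates, the Ly6CLow replicate of mouse 23 and GFPpos CCR2Low macrophages of mouse 22. Erythroid markers, a sign of red cell RNA, summed to 0.473 to 90.2 CPM in brain and 1.16 to 101 CPM in blood, with *Slc4a1* at 0 in every replicate. Their median in brain was 37.8 CPM in mouse 26, 32.0 in mouse 22, 2.67 in mouse 24 and 2.03 in mouse 23, and their part in the *Hmox1* levels was not tested.

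Of the export genes, *Cp* was close to absent from blood, at 8, 0 and 8 counts in Ly6CHigh and 0, 0 and 3 counts in Ly6CLow blood monocytes (at most 4.53 CPM). GFPneg brain monocytes of mice 22, 24 and 26 had 16.4, 2.64 and 27 CPM, and GFPpos ones 61.4, 11.6 and 68.8 CPM. CCR2High macrophages of mice 22, 23, 24 and 26 had 16.6, 24.8, 1.0 and 43.7 CPM without GFP and 56.7, 34.2, 39.7 and 90.7 CPM with GFP. CCR2Low macrophages had 36.7, 53.5, 16.5 and 79.6 CPM without GFP and 64.1, 79.0, 49.0 and 129.9 CPM with GFP. Only 2 brain replicates, both GFPneg and from mouse 24, fell into the blood range. The fitted log2 fold change between brain and blood was 5.43 ± 0.78 (SE), adjusted p = 3.8e-06 (edgeR), and 5.04 without the second run. With the mouse as a block it was 4.78 (adjusted p = 1.5e-06). Against the 3 counts of Ly6CLow blood monocytes, GFPpos CCR2Low macrophages were 215 times as high at equal depth (exact 95% interval 73.4 to 1046, counting error only). *Cp* shares 108 exonic bases with *Hps3* on the other strand.

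*Slc40a1* was low throughout, at 5.07 to 113 CPM in brain (mean 40.8 ± 25, SD, n = 22) and 0 to 49.1 CPM in blood (16.3 ± 17.2, n = 6). The log2 fold change of 1.28 ± 0.57 (SE) was not called by edgeR (adjusted p = 0.0785). It was called by DESeq2 (1.31, adjusted p = 0.0253) and by edgeR without the Ly6CLow blood monocytes of mouse 22, which had 49.1 CPM (1.90, adjusted p = 0.0172). Without the second run it was 0.91 (adjusted p = 0.218), and with the mouse as a block 0.80 (adjusted p = 0.238).

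**Figure D3:**
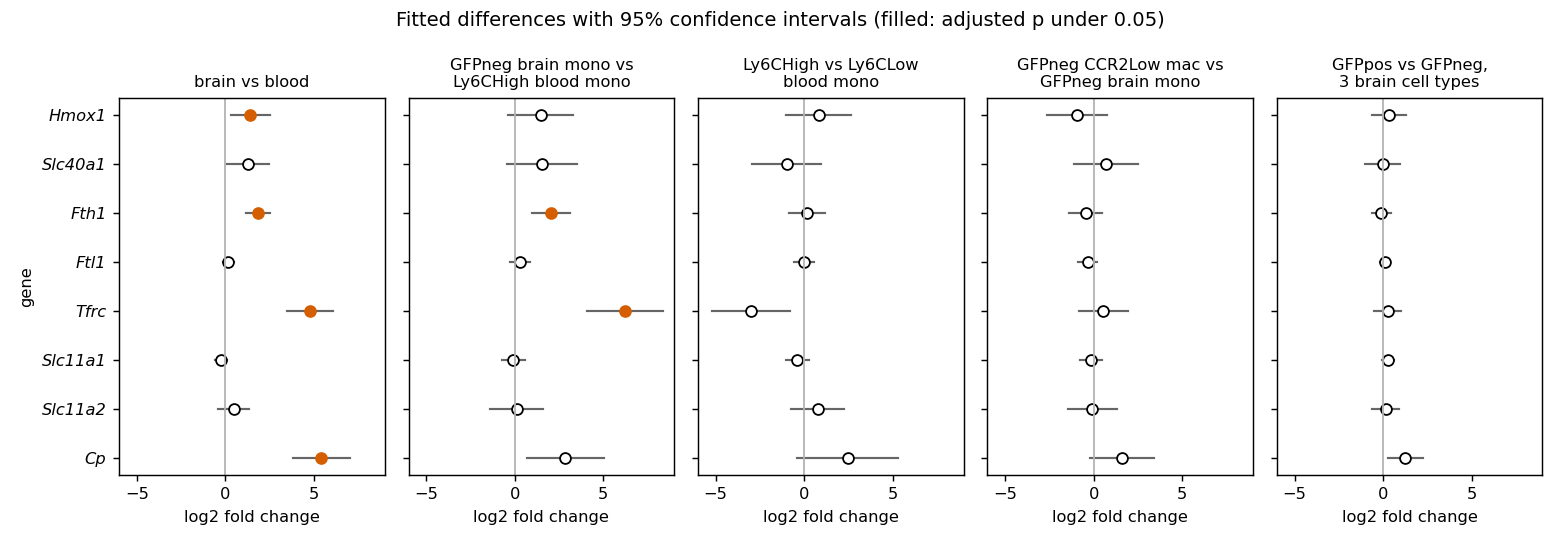
Fitted log2 fold changes of the 8 genes (points) with 95% confidence intervals (bars) in 5 comparisons, from edgeR; filled points have an adjusted p under 0.05. Filled points stand in the 2 panels that set brain against blood, at 1.42 to 5.43 in the first and at 2.05 and 6.24 in the second.

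GFPneg brain monocytes against Ly6CHigh blood monocytes asks what differs between infiltrating monocytes sorted as GFPneg and their counterparts in blood. *Fth1* was called higher, by 2.05 ± 0.51 on the log2 scale (SE; adjusted p = 0.00683, edgeR), as was *Tfrc*, by 6.24 ± 1.03 (adjusted p = 1.0e-04). These are 2 of 8, beside 13.6% of tested genes called and 10.9% called higher. *Tfrc* had passed the filter only through brain replicates, so its call and its lack of overlap were close to set beforehand. With spike-in scaling *Fth1* kept its size, 2.09, and lost its call (adjusted p = 0.317). The groups did not overlap for *Fth1*, *Tfrc* and *Slc40a1*, 3 of 8, beside 35.8% of tested genes with these 3 against 3 replicates. *Cp* had a log2 fold change of 2.86 (adjusted p = 0.0699 by edgeR, and 0.0151 by DESeq2, which called it), and without the GFPneg brain monocytes of mouse 24 it was 3.33 with an adjusted p of 0.0391. *Slc40a1*, at 31.2 ± 12 against 10.9 ± 4.68 CPM (SD, n = 3 each), was called only in a fit of these 2 populations alone (1.56, adjusted p = 0.0405). With the mouse as a block it was 0.57 (adjusted p = 0.754), and the groups share only mice 22 and 24.

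None of the 8 was called between Ly6CHigh and Ly6CLow blood monocytes, where 5.25% of tested genes were. *Tfrc* came nearest, at -3.01 ± 1.06 (SE, log2, Ly6CHigh minus Ly6CLow, adjusted p = 0.0987, edgeR), from 2 against 20 counts in all. Without the Ly6CLow replicate of mouse 23, which comes from the second run, it was called at -3.60 (adjusted p = 0.0258), and 18 of the remaining Ly6CLow counts were from mouse 24. Leaving out that replicate of mouse 24 brought it to -0.78 (adjusted p = 0.804), and leaving out the Ly6CHigh replicate of mouse 24, which held both counts, to -5.61. *Fth1* and *Ftl1* differed by 0.15 and -0.02, with 95% confidence intervals of -0.88 to 1.17 and -0.58 to 0.54. The sign of *Fth1* turned to -0.40 without the second run. Spike-in scaling, which moved the median of all genes in this comparison from 0.11 to 1.69, put *Fth1* at 1.48 and *Ftl1* at 1.74, and neither was called. Spike-in shares of Ly6CLow replicates were 2.47%, 13.3% and 0.779% in mice 22, 23 and 24, the 13.3% being the second-run library. Ly6CHigh replicates of these mice had 0.613%, 1.26% and 0.290%.

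Within the brain, none of the 8 genes was called between GFPneg cells of the 3 types by edgeR. Between CCR2High macrophages and monocytes 0 of 8 were called (0.173% of tested genes), and between CCR2Low macrophages and monocytes 0 of 8 (1.09%), with 0 of 8 at an unadjusted p under 0.05 in either. Between CCR2Low and CCR2High macrophages 0 of 8 were called, as were 0.0% of all tested genes, with 274 of these at an unadjusted p under 0.05 and 8 called by DESeq2. The 1 of 8 at an unadjusted p under 0.05 was *Tfrc*, at 29.4 ± 15.9 CPM in CCR2Low and 11.7 ± 4.36 CPM in CCR2High macrophages (SD, n = 4 each; log2 fold change 1.33, 95% confidence interval 0.03 to 2.63, adjusted p = 1.0, edgeR). *Cp* means ran from 15.4 CPM in monocytes through 21.5 CPM in CCR2High to 46.6 CPM in CCR2Low macrophages, and neighbours in that order overlapped. The intervals were wide for several genes. For *Hmox1*, CCR2Low macrophages against monocytes gave -0.94 with an interval of -2.62 to 0.73. This fit, without a mouse block, thus does not leave out a level several times lower in CCR2Low macrophages. With the mouse as a block it was -0.79 ± 0.40 (SE) and not called (adjusted p = 0.555, edgeR).

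Ordered by mean, neighbouring populations overlapped for each of the 8 genes with 2 exceptions, the step from brain to blood in *Fth1* and in *Tfrc*. For *Fth1* the order ran from GFPneg brain monocytes (10026 ± 1283 CPM, SD, n = 3) down to GFPpos brain monocytes (7117 ± 1190.5, n = 3) and then to Ly6CHigh blood monocytes (2423 ± 701, n = 3) and Ly6CLow ones (2189 ± 1982, n = 3). The order of the blood populations rests on the second-run replicate at 266 CPM, since the other Ly6CLow replicates had 4225 and 2077 CPM. *Slc40a1* was highest in GFPpos CCR2Low macrophages (58.6 ± 40.8 CPM, n = 4) and lowest in Ly6CHigh blood monocytes (10.9 ± 4.68, n = 3). *Ftl1* spanned only 3864 ± 851 CPM (n = 4, GFPneg CCR2Low macrophages) to 5095 ± 1409 CPM (n = 3, GFPpos brain monocytes).

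GFPpos and GFPneg cells of the same mouse were compared to ask whether GFP, the study's marker of membrane uptake, went with a change. *Cp* was higher in GFPpos cells in all 11 pairs, which holds for 48 of all tested genes (0.415%). The ratio was 1.38 to 4.38 in the pairs with more than 3 counts on each side, and in CCR2High macrophages of mouse 24, at 2 against 65 counts, it was 39.5 (exact 95% interval 10.5 to 333, counting error only). *Hmox1* was higher in GFPpos cells in all 8 macrophage pairs, by 1.28 to 2.15 times, as were 1.10% of tested genes. In brain monocytes it was higher in mouse 22 alone. Both patterns were picked out after the values had been seen.

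The fits did not call either gene. Over the 3 cell types together *Cp* was higher in GFPpos cells by 1.25 ± 0.47 on the log2 scale (SE; unadjusted p = 0.0127, adjusted p = 1.0, edgeR), and by 1.42 with the mouse as a block (adjusted p = 0.213). *Hmox1* differed by 0.34 (adjusted p = 1.0, edgeR) and by 0.43 with the block (adjusted p = 0.828). An exact permutation of the sign over 4 mice cannot go below p = 0.125, which is what both genes gave for the macrophages. In the separate comparisons 0 of 8 were called in monocytes, in CCR2High macrophages, in CCR2Low macrophages and over all 3. Of all tested genes 0.0% were called in each of these 4 by edgeR, with 740, 71, 184 and 471 at an unadjusted p under 0.05, and DESeq2 called 20, 1, 5 and 16. A difference in the GFP effect between cell types was not called for any of the 8 in a test of the interaction (adjusted p = 1.0 for each, edgeR). The summed level of 7 astrocyte markers was also higher in GFPpos cells in 10 of 11 pairs. Of these markers *Aldoc* reached 146 CPM in brain, *Slc1a3* 65.4, *Gja1* 61.9, *S100b* 48.1, *Slc1a2* 18.3, *Gfap* 14.8 and *Aqp4* 6.87 CPM. The summed level of the 11 dissociation markers was higher in GFPpos cells in 0 of 11 pairs. The part of astrocyte transcripts and of dissociation in the *Cp* and *Hmox1* values was not tested. *Fth1* and *Ftl1* were higher in GFPpos cells in 6 and 9 of 11 pairs, with median ratios of 1.02 and 1.14.

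**Figure D4:**
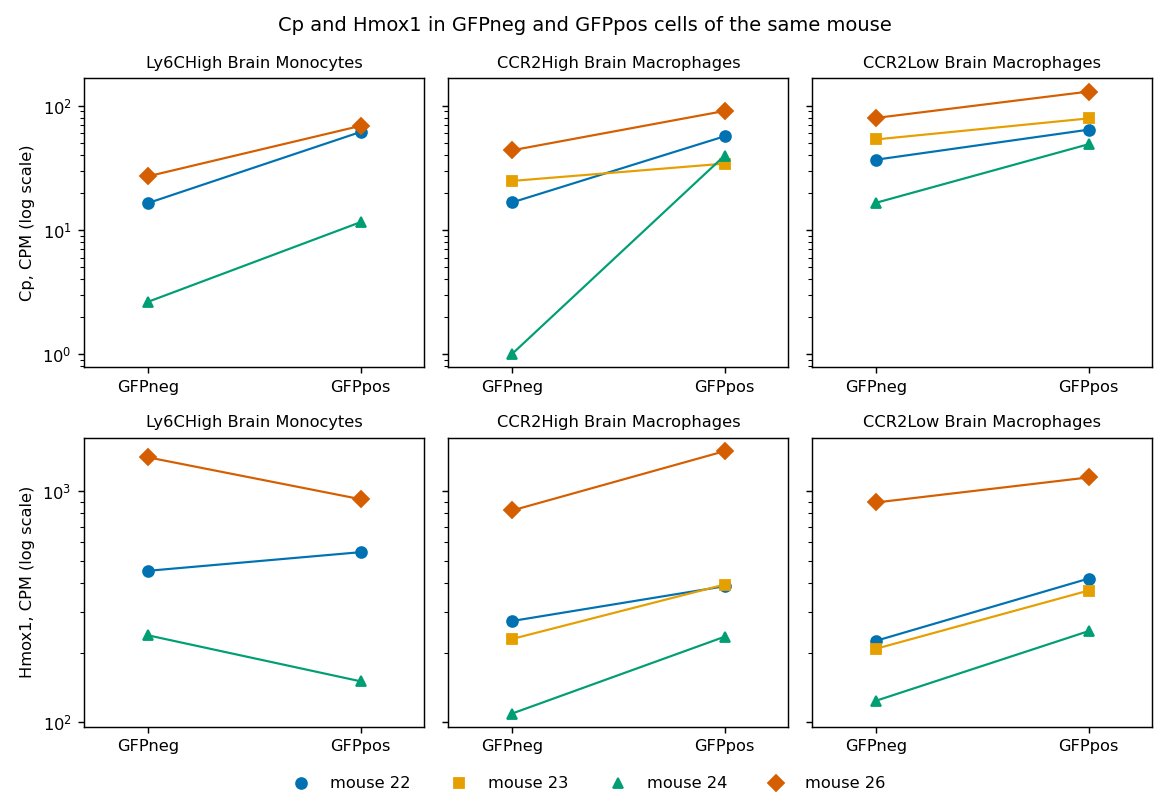
*Cp* (top) and *Hmox1* (bottom) in GFPneg and GFPpos cells of the same mouse (lines), as CPM on a log axis, for the 3 brain cell types. All 11 *Cp* lines rise, and all 8 *Hmox1* lines of macrophages rise while 2 of 3 in monocytes fall.

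The genes whose log2 CPM followed each of the 8 most closely were looked up among those at 10 CPM or more over all 28 replicates. These correlations share libraries and the step from blood to brain, so the r over 22 brain replicates is given too, as a description. For *Hmox1* they were *Anln* (r = 0.85, brain 0.88), *Srxn1* (0.83, 0.83) and *Slc39a14* (0.83, 0.81), the last being a carrier of non-transferrin iron. For *Cp* they were *Cela1* (0.93, 0.89), *Gaa* (0.92, 0.80) and *Mt2* (0.92, 0.80), a metallothionein that binds metal ions. *Fth1* was followed by its pseudogene *Gm6977* (0.97, 0.76), *Rab20* (0.95, 0.48) and *Csrp1* (0.94, 0.26). For *Ftl1* they were *Pqlc2* (0.73, 0.65), *Ubb* (0.73, 0.64) and *Prdx1* (0.72, 0.67), a peroxiredoxin. *Tfrc* was followed by *Gpm6b* (0.96, 0.77), *Maged2* (0.94, 0.59) and *Shmt1* (0.93, 0.45), and *Slc40a1* by *Lmnb2* (0.87, 0.71), *Pmm1* (0.85, 0.76) and *Qsox1* (0.82, 0.63). *Slc11a2* had *Apeh* (0.96, 0.44), *Vps26a* (0.95, 0.37) and *Mrpl10* (0.95, 0.30), and *Slc11a1* had *Pikfyve* (0.62, 0.65), *Ddx46* (0.62, 0.68) and *Itgb2* (0.62, 0.58). For *Slc11a2* and for *Fth1* much of the likeness was thus lost within the brain. Among the 8 themselves, *Fth1* and *Ftl1* had r = 0.38 over all replicates and 0.74 within the brain, and *Hmox1* and *Cp* 0.66 and 0.63.

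A further 70 genes of iron and heme metabolism in 7 lists give the setting. Of these 55 were tested, and in brain versus blood 19 were higher, 9 lower and 27 not called, beside the 26.4% of all tested genes called higher and 39.3% called in all. In GFPneg brain monocytes against Ly6CHigh blood monocytes 4 were higher and 3 lower, beside 13.6% of all tested genes called. The lists were chosen with earlier results of these data known.

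Genes around the members moved both ways between blood and brain, and some of these calls depended on the processing. Of 8 iron uptake genes tested, 4 were higher and 2 lower: *Slc39a14* rose by 3.25 (log2), from 3.89 ± 4.31 to 28.9 ± 22.6 CPM, and *Hfe*, a partner of the transferrin receptor, fell by 1.27, from 460 ± 293 to 167 ± 44.2 CPM (SD, n = 6 and 22). The call of *Slc39a14* held in 36 of 36 alternatives. That of *Hfe* held in 36 of 37, with values of -1.41 to -0.74. *Hfe* was also lower in Ly6CHigh than in Ly6CLow blood monocytes, at -1.78 on the log2 scale (adjusted p = 2.1e-04, edgeR), a call lost in 2 of 16 alternatives, among them spike-in scaling (-0.16, adjusted p = 0.926). Of 7 storage and sensing genes 2 were higher: *Ncoa4*, the receptor that takes ferritin to lysosomes, rose by 0.65 (adjusted p = 0.0130), and *Ltf*, a granule protein of neutrophils, by 5.55 (adjusted p = 0.0485), a call that was lost in 24 of the alternatives. The call of *Ncoa4* held in 32 of 37 alternatives. Neutrophil markers summed to 4.75 to 2313 CPM in brain and 150.3 to 981 CPM in blood. The iron regulatory proteins *Aco1* and *Ireb2* and the iron sensor *Fbxl5* were not called in this comparison, and *Fbxl5* was higher in Ly6CHigh than Ly6CLow blood monocytes (1.74, adjusted p = 0.0265). That call was lost in 6 of 16 alternatives, the first-run libraries among them, with values of 1.37 to 3.15. Of 7 mitochondrial iron genes 0 were higher and 1 lower, *Slc25a28*, a mitochondrial iron importer (-1.07, adjusted p = 0.0371), which was named after its value was seen. It was at 4.84 ± 0.58 CPM in Ly6CHigh and 12.2 ± 11.3 CPM in Ly6CLow blood monocytes, beside 3.70 ± 1.67 CPM in brain (SD). Its highest blood value, 25.1 CPM, came from the Ly6CLow replicate of the second run. None of the 6 genes of the list with hepcidin (*Hamp*) and the oxidase *Heph* had enough counts to be tested.

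In heme synthesis 3 of 8 were higher and 1 lower. *Alas1*, the first enzyme of the pathway, rose by 2.11 (log2), from 71.6 ± 37.2 to 296 ± 89.3 CPM, and *Uros* and *Alad* by 1.92 and 1.69, while the mitochondrial glycine carrier *Slc25a38* fell by 0.90. The call held in 36 of 36 alternatives for *Alas1*, in 35 of 36 for *Uros* and in 34 of 36 for *Alad*. That of *Slc25a38* held in 35 of 37, with values of -1.10 to -0.33. In heme uptake, transport and breakdown 4 of 12 were higher and 2 lower. *Slc46a1*, a folate carrier that also takes up heme, rose by 2.50 and *Blvrb*, a biliverdin reductase downstream of heme oxygenase, by 0.78. *Hp*, the plasma protein that binds free hemoglobin, fell by 4.15, from 1273 ± 789 to 111 ± 159 CPM (SD, n = 6 and 22), and the heme exporter *Flvcr1* by 2.03. *Hp* also fell within the brain, with differences from monocytes of -3.55 in CCR2High (adjusted p = 0.00397) and -4.28 in CCR2Low macrophages (adjusted p = 1.5e-04, edgeR), all without GFP. Each of these 2 calls held in 16 of 17 alternatives, with values of -4.17 to -3.25 and of -4.51 to -3.99. *Hmox2*, the constitutive heme oxygenase, was not called (0.23).

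The last list joined targets of Nrf2, the transcription factor that induces *Hmox1* and ferritin genes, with other regulators of iron and heme genes. Of its 13 genes 6 were higher and 3 lower. *Slc7a11*, the cystine carrier, rose from 12 counts in all 6 blood replicates (0.834 ± 1.40 CPM) to 80.8 ± 27.6 CPM in brain (fitted log2 fold change 7.03). *Srxn1* rose by 2.58 and *Txnrd1* by 1.34. *Nr1h3*, the nuclear receptor LXR alpha, rose by 1.52. *Bach1*, the repressor of *Hmox1*, fell by 1.18, from 92.6 ± 18.6 to 41.9 ± 19.8 CPM (adjusted p = 1.4e-05, edgeR). That fall held its call in 36 of 37 alternatives, with values of -1.35 to -0.77 and adjusted p of up to 0.362. *Bach1* was also lower in CCR2Low macrophages than in monocytes, at -1.54 (adjusted p = 0.0166, edgeR). That call within the brain held in 11 of 17 alternatives, with values of -1.66 to -1.44 and adjusted p of up to 1.0. *Nfe2l2*, which encodes Nrf2, was not called (0.28).

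**Figure D5:**
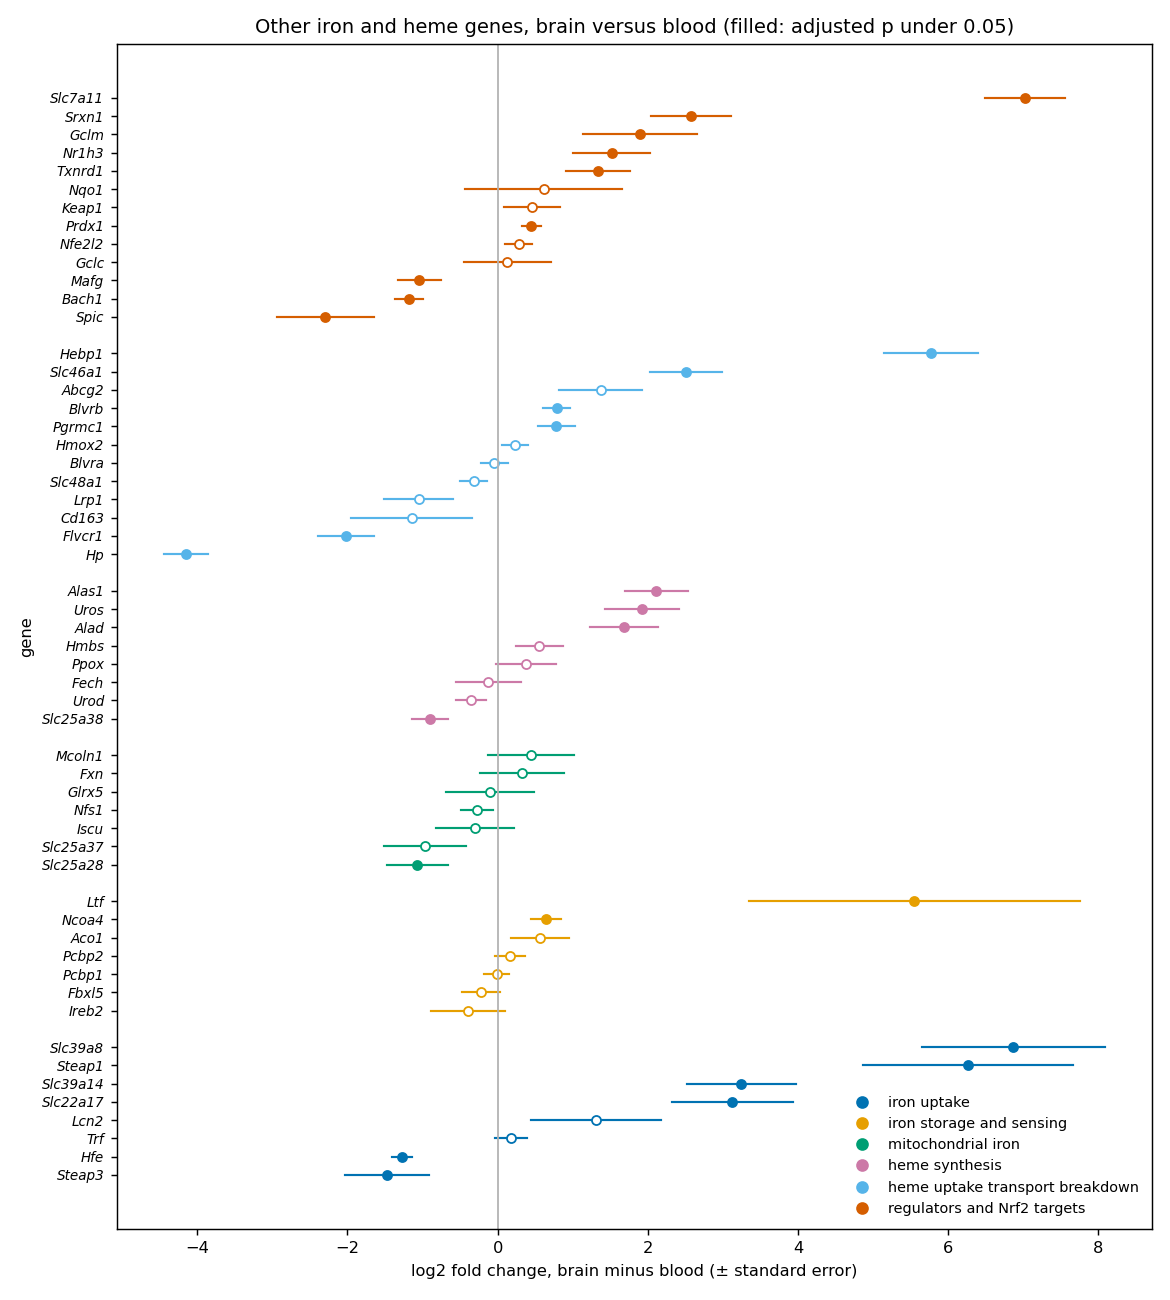
Fitted log2 fold changes (points, ± SE) between brain and blood of the 55 other iron and heme genes tested, by list (colors); filled points have an adjusted p under 0.05. *Slc7a11* (7.03) and *Hp* (-4.15) mark the ends of the range, and filled points lie on both sides of 0.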

How the data were processed

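Cells were sorted from blood and brain, and poly-A RNA was amplified with the SMARTer kit together with ERCC spike-in RNAs. Per the study's methods, the authors used STAR for alignment (mm10), then Picard 1.8.4 to take out duplicate reads, and deposited counts per gene that came from htseq-count in its intersection-strict mode with Gencode GRCm38.p3. The strand setting is not given in the sources used here.

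Of 30 libraries, 1 with fewer than 6000 genes at 5 reads or more was left out, and the 2 passing libraries of 1 sample were summed, giving 28 replicates. Counts of 45317 symbols were tested in 1 fit over the 8 populations with edgeR 4.0.16 (R 4.3.3; TMM, filterByExpr, robust quasi-likelihood test, Benjamini-Hochberg adjustment over 11566 genes). The 92 spike-ins stayed outside. Standard errors of edgeR fold changes were derived as the absolute log2 fold change divided by the square root of the test's F statistic. Their confidence intervals used a t distribution with fixed degrees of freedom, so both are approximate. DESeq2 1.42.0, scaling by spike-ins or size factors, other filters, a mouse block, only the populations compared, first-run libraries only and leaving out single replicates were alternatives. The use of first-run libraries only and the GFP comparison over 3 cell types were added after the data had been seen. The edgeR fit was tested on simulated counts. Permutations used scipy 1.17.1.

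Within a population the replicates are different mice, and p-values measure the spread between replicates of a population. The main fit had no mouse block. In brain versus blood, replicates of the same mouse thus entered as if independent, and those p-values do not measure the spread between mice alone. Same-numbered samples come from the same animal. The correlation of their deviations from population means was -0.0958 to 0.674 (median 0.135, 86 pairs), against a median of -0.0292 for 256 pairs of different mice. Exact intervals of count ratios cover counting error only, since no molecular identifiers were used. Genes named are the 8 themselves, up to 4 called genes at 10 CPM or more per list, the 3 most correlated genes at 10 CPM or more per member, and a few others given as markers, copies, regulators or genes without a call. An item of the lists is not reported here. The members and the lists were chosen with earlier results of these data known.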

Additional observations from a re-analysis of the deposited data

Results flagged for a closer look

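In 32 groups of 4 replicates (8 genes by 4 macrophage populations), the highest or the lowest replicate stood apart from the other 3 by Dixon's criterion in 3, where chance gives about 1 in 20. *Hmox1* was at 1489 CPM in GFPpos CCR2High macrophages of mouse 26, against 234 to 394 CPM in the other mice. In GFPneg CCR2Low macrophages of mouse 26 it was at 893 CPM, against 124 to 225 CPM. *Slc11a2* was at 32.0 CPM in GFPneg CCR2High macrophages of mouse 22, against 37.7 to 38.7 CPM, a gap of few reads within a narrow group.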

How the results depend on the processing

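The brain versus blood calls of *Fth1*, *Tfrc* and *Cp* held in every alternative in which these genes were tested, and the difference in ferritin chain ratio kept its direction in all of its alternatives, at 1.43 to 2.19 on the log2 scale. *Hmox1* lost its call as described. With a filter of 10 counts in every replicate *Tfrc* and *Cp* could not be tested, leaving 2 members called (1804 genes), 1 member in GFPneg brain monocytes versus blood (638 genes) and 39 genes in CCR2High macrophages versus brain monocytes. Spike-in scaling called 2448 genes in brain versus blood in place of 4544, 398 genes and 1 member in brain monocytes versus blood, 36 between blood monocytes, and 0 and 1 in CCR2High and CCR2Low macrophages versus brain monocytes. It reversed 1 gene of the lists, *Mafg* (0.063, adjusted p = 0.962). DESeq2 called 1375 genes between blood monocytes, 93 and 274 in CCR2High and CCR2Low macrophages versus brain monocytes, 8 between macrophages, and 20, 1, 5 and 16 for GFP in monocytes, CCR2High, CCR2Low and all cells. Its size factors in edgeR gave 1 for GFP over all cells. Between blood monocytes a filter of 1 count gave 397 genes and first libraries only 401. With the mouse as a replicate block, 86 and 263 genes were called in CCR2High and CCR2Low macrophages versus brain monocytes, 3 between macrophages and 8 for GFP over all cells; among the members the block changed no call but that of *Hmox1*. First-run libraries only gave 1 member (*Tfrc*) and 323 genes between blood monocytes, 57 and 228 in CCR2High and CCR2Low macrophages versus brain monocytes, 5 for GFP in monocytes and 2 over all cells. Fitting only the populations compared gave 0 genes between blood monocytes, 101 and 293 in the macrophages versus brain monocytes, and 3 for GFP over all cells. Leaving out single replicates gave 4105 to 5200 genes and 3 to 5 members in brain versus blood, 1018 to 1321 in brain monocytes versus blood, 224 to 2444 genes and 0 to 1 members between blood monocytes, 6 to 21 and 47 to 110 in CCR2High and CCR2Low macrophages versus brain monocytes, and 0 to 1 for GFP in monocytes and over all cells. Between blood monocytes the 224 arose without Ly6CHigh of mouse 23 and the 2444 without Ly6CLow of mouse 24. Beside these, 106 values of single genes lost a call and 9 gained one, each in the same direction. The cause of these shifts was not tested. For members that were never called the sign could change, as for *Hmox1* in CCR2High macrophages versus brain monocytes (-1.79 to 0.03). Counts under about 20, as for *Tfrc* and *Cp* in blood, limit those levels to their order of size.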
